A study of Mus musculus with 2 samples.

Results

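Tropomyosin is encoded by 4 genes in the mouse, Tpm1, Tpm2, Tpm3 and Tpm4. They are described here with Cald1, which encodes the actin and tropomyosin binding protein caldesmon, and Myl6, which encodes an essential light chain of myosin. The 6 genes were taken by symbol from tables of 43346 genes, and they hold 63 annotated transcripts. Total RNA was sequenced from kidneys of mouse embryos of strain B6NCrl at 14.5 days of development. There are 2 libraries of this 1 condition, numbered as biological replicates 1 and 2, and no other genotype, treatment or age. Each was made, per the labels, from 2 kidneys of 1 embryo. The labels state a pool of males and females for each sample although they also name 1 pup, give collection days 2 days apart, and cite the same donor record for both. With 2 samples of 1 condition no test between groups can be made, so each value is given for both libraries and the spread between them is its error.

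Tropomyosin is a coiled coil that polymerises head to tail along actin filaments and governs which myosins and other actin-binding proteins reach them. In striated muscle it works with troponin to gate contraction by calcium, and in smooth muscle and non-muscle cells it works beside caldesmon and without troponin. Each gene yields many proteins: a distal start (exon 1a) gives long forms and an internal start (exon 1b) short forms, and exon 2, exon 6 and the last exon come in alternatives. Exon 2a is the choice of smooth muscle, exon 9a that of striated muscle, exon 9c that of brain, and exon 9d serves smooth muscle and non-muscle cells alike.

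The alternative exons that separate muscle from non-muscle forms are shown as coding sequence, 5′ to 3′ on the transcribed strand, from GENCODE release M21 on GRCm38. In each pair, capitals mark the bases at which the 2 exons differ. The first pair lies on the minus strand of chromosome 9, with exon 2a at chr9:67048124-67048249 and exon 2b at chr9:67047786-67047911; 60 of their 126 bases are identical.
Tpm1 exon 2a: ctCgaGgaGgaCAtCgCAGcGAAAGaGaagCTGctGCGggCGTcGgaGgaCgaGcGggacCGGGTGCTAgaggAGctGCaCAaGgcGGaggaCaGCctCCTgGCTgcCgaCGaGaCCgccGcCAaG
Tpm1 exon 2b: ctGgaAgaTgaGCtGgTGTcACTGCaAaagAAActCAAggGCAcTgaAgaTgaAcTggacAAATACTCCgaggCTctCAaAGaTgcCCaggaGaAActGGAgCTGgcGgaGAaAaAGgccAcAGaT

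The last coding exons of Tpm1 lie at chr9:67029663-67029742 (9a) and chr9:67023362-67023441 (9d), and 35 of their 80 bases are identical. Those of Tpm2 lie on the minus strand at chr4:43515924-43516003 (9a) and chr4:43514782-43514861 (9d), with 33 of 80 bases identical. Between Tpm1 and Tpm2, exon 9a had 66 of 80 bases identical and exon 9d 57 of 80. Each was thus more alike between the 2 genes than exons 9a and 9d were within a gene.
Tpm1 exon 9a: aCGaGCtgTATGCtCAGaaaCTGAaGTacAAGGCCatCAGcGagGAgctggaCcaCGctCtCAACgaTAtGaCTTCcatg
Tpm1 exon 9d: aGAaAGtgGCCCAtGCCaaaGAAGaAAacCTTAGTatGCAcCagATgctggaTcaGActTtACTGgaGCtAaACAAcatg
Tpm2 exon 9a: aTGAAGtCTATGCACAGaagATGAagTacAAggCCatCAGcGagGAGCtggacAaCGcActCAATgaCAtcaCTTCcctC
Tpm2 exon 9d: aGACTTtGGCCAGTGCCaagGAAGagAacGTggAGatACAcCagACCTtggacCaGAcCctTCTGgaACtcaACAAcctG

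In Tpm2, exon 6 also separates skeletal muscle (6b, chr4:43518644-43518719) from smooth muscle and non-muscle cells (6a, chr4:43519003-43519078), with 41 of 76 bases identical.
Tpm2 exon 6b: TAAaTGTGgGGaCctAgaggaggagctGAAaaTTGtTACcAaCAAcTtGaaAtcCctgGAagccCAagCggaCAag
Tpm2 exon 6a: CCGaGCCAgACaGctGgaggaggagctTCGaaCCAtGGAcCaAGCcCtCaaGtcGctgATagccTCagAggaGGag

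Myl6 has 2 endings. The form named for smooth muscle skips a 45-nt exon and ends in the last exon (minus strand, coding part chr10:128491008-128491033), and the non-muscle form ends in the extra exon (coding part chr10:128491739-128491764).
Myl6 last exon: AGCttgtCCggATGGtGctgAATggC
Myl6 extra exon: CATttgtGAggCATAtCctgTCGggG

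All 6 genes were among the more abundant RNAs of the embryonic kidney. Levels are in TPM, a transcript abundance adjusted for length and library size, so that genes can be set beside each other. All 6 genes were at 1 TPM or more in both libraries, a level that 33.1% of all 43346 genes reached. Among those 14329 genes the median of the mean level was 15.8 TPM. Genes at 1 TPM or more in both libraries are called detected below, and 33.1% is the share of all genes beside each such count. The 43346 genes were not restricted to protein-coding ones, so a higher share in a list of protein-coding genes is not in itself an excess.

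In the pairs of values below replicate 1 is given before replicate 2. Myl6 was the highest, at 649 and 656 TPM (mean 653 ± 5.11, SD, n = 2), which is rank 205 of all genes. Tpm4, which encodes a short tropomyosin of non-muscle cells, was at 565 and 524 TPM (544 ± 28.6, rank 245). Tpm3, whose short forms are found in most cell types, was at 455 and 385 TPM (420 ± 49.2, rank 342). No gene's range overlapped that of its neighbour in this order.

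Tpm1, which supplies heart and skeletal muscle as well as non-muscle cells, was at 332 and 296 TPM (314 ± 25.5, rank 459). Tpm2, the beta tropomyosin of skeletal and smooth muscle and of fibroblasts, was at 165 and 156 TPM (160 ± 6.48, rank 915). Cald1 was at 145 and 116 TPM (130 ± 20.5, rank 1116). The order of the 6 genes was the same in both libraries, and no 2 neighbours in it overlapped. Cald1 was closest to its neighbour, with its higher library below the lower library of Tpm2.

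**Figure D1:**
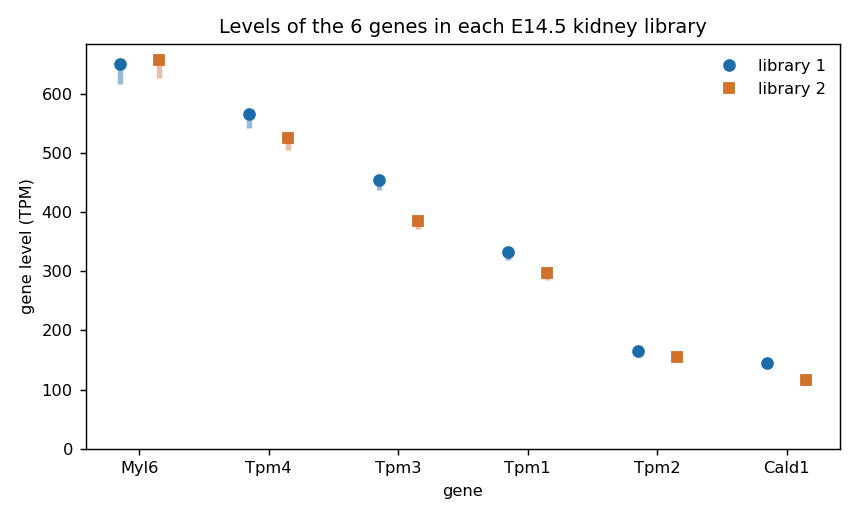
Level of each gene in TPM on the vertical axis, with 1 point for library 1 and 1 for library 2 (replicates 1 and 2) and bars for the authors' deposited credibility bounds of each estimate. Myl6 lies highest at 649 and 656 TPM and Cald1 lowest at 145 and 116 TPM, and some points sit above their bar.

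The deposited bounds describe the estimate within a library, not the spread between libraries, and they surround the posterior mean. The deposited TPM lay above the upper bound for 4 of the 6 genes in replicate 1 and for 2 of the 6 in replicate 2. Myl6 in replicate 1, for instance, was at 649 TPM with bounds of 616 and 645 TPM. The values rest on 7169 and 8366 expected counts for Myl6, 22357 and 23956 for Tpm4, 17562 and 17195 for Tpm3, 10319 and 10446 for Tpm1, 3758 and 4127 for Tpm2, and 5364 and 5169 for Cald1. An expected count is an estimated number of reads, in which a read that matches several genes is shared out. Tpm1, Tpm2 and Cald1 had a deposited posterior SD of 0 counts, so no read of theirs was shared with another gene. That of Tpm3 was 14.6 and 15.4 counts. Its intronless copy Tpm3-rs7 was listed with 188 and 189 expected counts (4.80 and 4.18 TPM), and Tpm3-rs2 with 0 counts in both libraries.

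By the size rule used between libraries, at least 2-fold apart on the log2(TPM + 1) scale with 5 TPM or more in the higher library, 0 of the 6 genes were apart, against 4.06% of the 15702 genes at 1 TPM or more in either. The ratio of replicate 1 over replicate 2 was 1.25 for Cald1, 1.18 for Tpm3, 1.12 for Tpm1, 1.08 for Tpm4, 1.06 for Tpm2 and 0.989 for Myl6. In TPM, 5 of the 6 were higher in replicate 1, as was the median of all genes tested, by 0.26 on the log2 scale, against 0.14 for the 6 genes. This direction turned with the scaling. With counts scaled to TMM library sizes, which moved the median of all genes to 0.01, all 6 were lower in replicate 1, by 0.05 (Cald1) to 0.33 (Myl6) on the log2 scale. No direction between the 2 libraries is therefore drawn for these genes.

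The 4 tropomyosin genes summed to 1516 and 1361 TPM. Tpm4 took 37.2% and 38.5% of that sum (37.9 ± 0.902%, SD, n = 2), and Tpm3 averaged 29.1 ± 1.20%. Tpm1 held 21.9% and 21.8% (21.8 ± 0.105%), and Tpm2 the remaining 10.9% and 11.4% (11.2 ± 0.401%). The shares varied less between libraries than the levels did, which is partly built in, since dividing by the sum removes a shift common to the 4 genes. The coefficient of variation of the levels was 11.7% for Tpm3, 8.10% for Tpm1, 5.25% for Tpm4 and 4.04% for Tpm2.

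Of the 63 transcripts, 30 reached 1 TPM in replicate 1, replicate 2 or both, and 17 were listed at 0 in both. The leading transcript was the same in both libraries for all 5 of the genes that list 2 or more, against 89.2% of the 7589 genes with 2 or more transcripts and 5 TPM or more in both libraries. In what follows, a form is the sum of the transcripts whose annotated exons show it, and a share is taken over the transcripts that show either choice. Short reads rarely span 2 alternative exons, so how exons are combined in a transcript is an estimate of the authors' quantification.

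Tpm1 listed 21 transcripts, the most of the 6 genes, and 11 of them reached 1 TPM in at least 1 library. Tpm1-213, the long non-muscle form with exons 1a, 2b, 6a and 9d, led with 151 and 129 TPM, 45.3% and 43.5% of the gene. Its bounds ran from 132 to 151 TPM in replicate 1 and from 116 to 130 TPM in replicate 2. Tpm1-211, the short form with exons 1b, 6b and 9d, followed with 78.8 and 79.5 TPM. Together with the short form Tpm1-212 (1b, 6a, 9d; 16.5 and 15.5 TPM) these carry the ending shared by smooth muscle and non-muscle cells.

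The striated muscle form of Tpm1, with exons 1a, 2b, 6b and 9a, is listed as 2 transcripts, Tpm1-201 and Tpm1-205, which summed to 36.5 and 42.0 TPM. It was thus the third combination of the gene, below Tpm1-211 and above Tpm1-212 in both libraries. The remaining forms were lower. Tpm1-209, with the brain exon 9c, was at 11.9 and 6.63 TPM. Its last exon is 1973 nt long, of which 71 nt are coding, and runs on over exon 9d, so reads there can be given to either form. Tpm1-216 (1a, 2b, 6b, 9d) was at 9.52 and 5.20 TPM.

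Exon 2a of smooth muscle was shown by Tpm1-214, whose other alternatives are 1a, 6a and 9d, at 7.91 and 5.37 TPM. Its bounds were wide, 2.22 to 9.31 TPM in replicate 1 and 0.367 to 6.52 TPM in replicate 2. The combination named for smooth muscle, 1a, 2a, 6b and 9d, was listed at 0 TPM in both libraries, as Tpm1-215 and as Tpm1-202, which holds exon 2b as well. The upper bounds of Tpm1-215 were 3.56 and 3.06 TPM, so levels of it below these bounds are not excluded. Tpm1-207, with exon 9b, was at 2.74 and 0.56 TPM. The non-coding or intron-retaining transcripts Tpm1-217 and Tpm1-221 were at 10.4 and 5.97 TPM, and at 6.74 and 6.12 TPM.

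**Figure D2:**
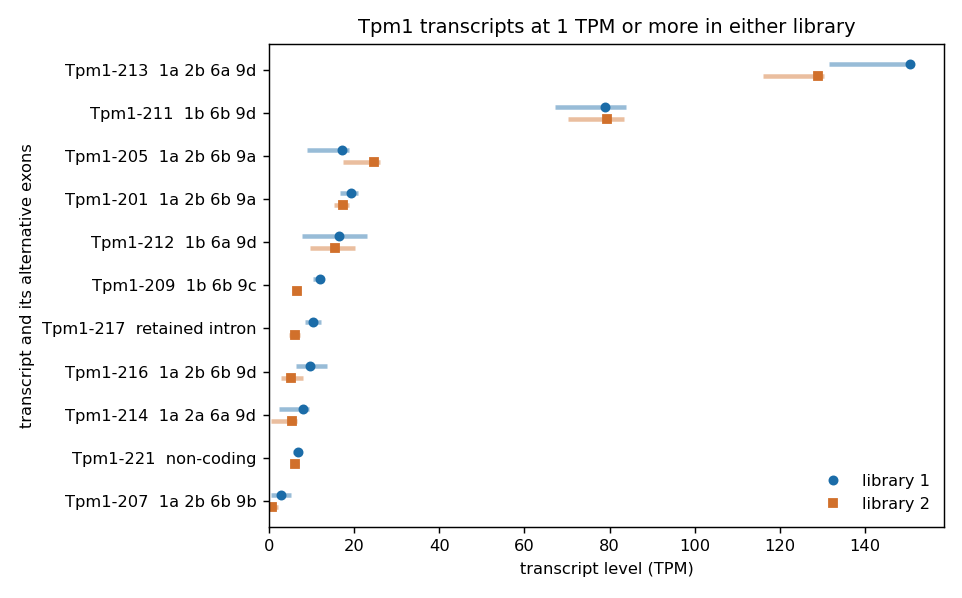
Level in TPM of the 11 Tpm1 transcripts that reached 1 TPM in either library, with the alternative exons each one carries, points for libraries 1 and 2 and bars for the deposited credibility bounds. Tpm1-213 stands apart at 151 and 129 TPM, Tpm1-211 follows at 78.8 and 79.5 TPM, and all others lie below 25 TPM.

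Exon by exon, the long start 1a was used by 67.1% and 65.0% of Tpm1 (66.0 ± 1.49%, SD, n = 2), and the short start 1b by the rest. Exon 2a was in 3.62% and 2.85% of the long transcripts (3.24 ± 0.547%), and exon 2b in the others. Exon 9a ended 11.6% and 14.8% of Tpm1 (13.2 ± 2.24%), against 83.7% and 82.7% for exon 9d (83.2 ± 0.752%). Exon 9c was in 3.06 ± 1.02% and exon 9b in 0.534 ± 0.476%. Exon 6 was the most even choice, with 54.2 ± 2.00% for 6a and 45.8 ± 2.00% for 6b.

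Tpm2 was mainly in the form of smooth muscle and fibroblasts. The skeletal muscle form Tpm2-202, with exons 6b and 9a, was at 20.4 and 18.4 TPM, against 141 and 137 TPM for Tpm2-203, with exons 6a and 9d. The skeletal form was 12.7% and 11.8% of the transcripts that show exon 6 (12.2 ± 0.601%), or 20.7 ± 0.923% weighted by expected counts, and the ranges of the 2 forms were far apart in both libraries. Tpm2-201, which joins exon 6a to exon 9a, was listed at 0 TPM with upper bounds of 0.505 and 0.290 TPM. The last exon of Tpm2-202 is 1292 nt long with 80 coding nt, and it runs on over exon 9d of the other form, so part of its reads could come from either. The remaining 3 transcripts of Tpm2 summed to 3.76 and 0.44 TPM, of which the incomplete Tpm2-206 held 2.52 and 0 TPM.

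Tpm3 was almost wholly the short non-muscle form. Tpm3-205, the long form of slow skeletal muscle (1a, 6b, 9a), was at 0.64 and 0.82 TPM, against 395 and 337 TPM for the short form Tpm3-201 (1b, 6a, 9d). The long start 1a took 0.225% and 0.233% of Tpm3, or 0.130 ± 0.0228% weighted by expected counts. Exon 9a took 2.36% and 1.99% (2.17 ± 0.266%), and most of it was in the short Tpm3-202 (1b, 6b, 9a) at 6.31 and 4.76 TPM. Retained-intron transcripts held 10.7% and 10.3% of Tpm3, led by Tpm3-215 at 29.9 and 28.6 TPM and Tpm3-207 at 11.5 and 8.44 TPM. Of the others, Tpm3-211 was at 4.79 and 2.07 TPM, Tpm3-209 at 1.73 and 0 TPM, and the non-coding Tpm3-210, which shows exon 9a, at 2.62 and 1.27 TPM.

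Tpm4 listed a coding form, the short Tpm4-201, which accounted for all of its 565 and 524 TPM. The non-coding Tpm4-202 was at 0 TPM. The tables hold no long form of Tpm4, so its start and endings give no choice to compare.

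Caldesmon comes as a heavy form, made by smooth muscle through a 624-nt extension of an internal exon (chr6:34746016-34746639), and as a light form made by most other cells. Heavy transcripts summed to 2.15 and 2.24 TPM, against 108 and 90.8 TPM for light ones. Heavy caldesmon was 1.95% and 2.41% of the 2 (2.18 ± 0.326%, SD, n = 2), and Cald1-205 was its main transcript at 1.25 and 2.10 TPM. The bounds of Cald1-205 were wide, 0.557 to 1.76 TPM in replicate 1 and 0.504 to 2.39 TPM in replicate 2. The other heavy transcripts, both incomplete, went the other way, Cald1-212 at 0.66 and 0.14 TPM and Cald1-210 at 0.24 and 0 TPM. The most abundant Cald1 transcript, Cald1-211, is annotated as an incomplete stretch of 956 nt. It was at 58.1 and 49.6 TPM but held 972 and 957 expected counts, fewer than the 3223 and 2968 counts of the complete light form Cald1-203 at 41.9 and 33.4 TPM.

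Which start of Cald1 came out higher depended on how its transcripts were weighed and which were kept. Over all transcripts the distal start took 69.6% and 69.9%. Weighted by expected counts it took 39.9 ± 2.09% on average, and over complete coding transcripts, a choice made after seeing these values, 19.5 ± 3.58%. Heavy caldesmon was the smaller form under both, at 3.60 ± 1.42% and 3.69 ± 1.71%. The complete light form from the distal start, Cald1-204, was at 7.32 and 6.90 TPM. Retained-intron transcripts held 23.8% and 19.7% of Cald1, led by Cald1-215 at 30.6 and 19.7 TPM, while Cald1-208 was at 1.19 and 1.52 TPM and Cald1-209 at 1.15 and 1.13 TPM.

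**Figure D3:**
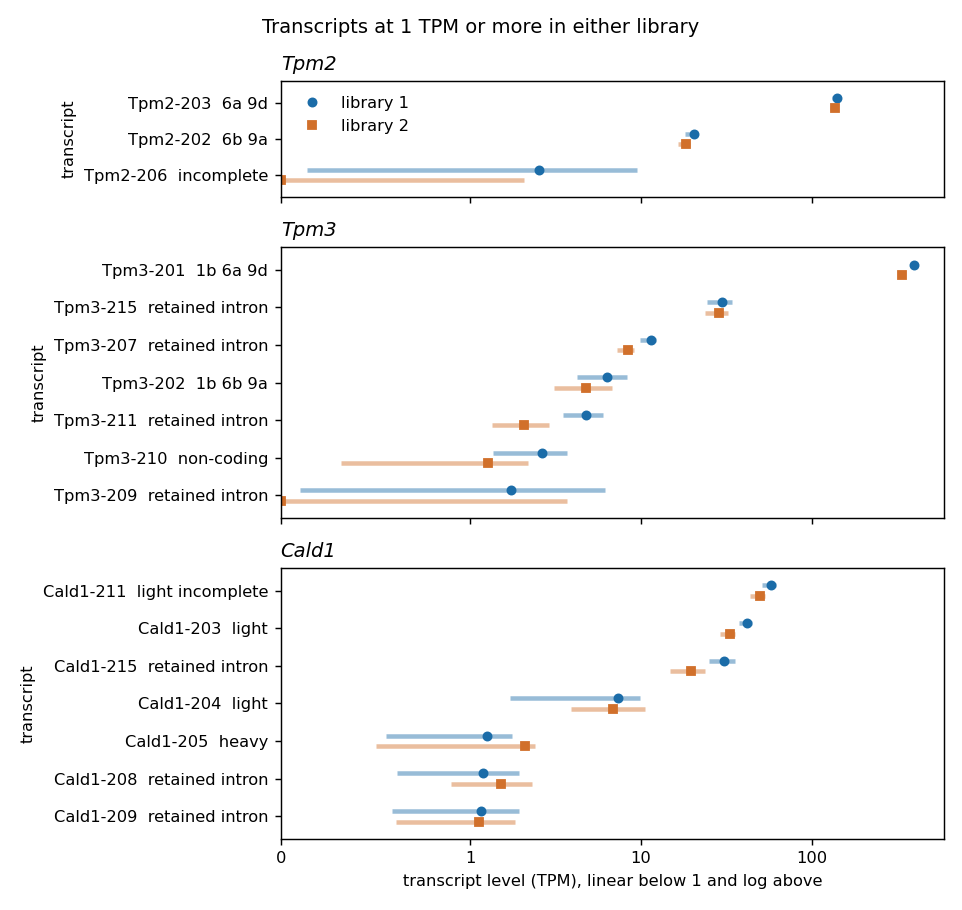
Level in TPM, on an axis that is linear below 1 and logarithmic above, of the transcripts of Tpm2, Tpm3 and Cald1 that reached 1 TPM in either library, with points for libraries 1 and 2 and bars for the deposited credibility bounds. Forms that non-muscle cells use lead each gene, Tpm2-203 at 141 and 137 TPM, Tpm3-201 at 395 and 337 TPM and Cald1-211 at 58.1 and 49.6 TPM.

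Myl6 was listed as Myl6-201 alone, which skips the 45-nt exon and has the ending named for smooth muscle, while GENCODE M21 lists 15 transcripts. Reads in the exons that the 2 forms share do not tell them apart, and the extra exon is not in the listed transcript. The 2 forms printed above could therefore not be compared, and how reads of the extra exon were treated was not tested.

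For each gene with a muscle and a non-muscle choice, the muscle form was the lower in both libraries. Smooth muscle shares exon 9d and exon 6a of Tpm2 with non-muscle cells, and striated muscle shares exon 2b of Tpm1, so the non-muscle side of these pairs is not free of muscle. The log2 ratio of exon 9a over 9d was -2.67 ± 0.26 in Tpm1, -2.85 ± 0.08 in Tpm2 and -5.50 ± 0.18 in Tpm3 (SD, n = 2). Exon 6b over 6a of Tpm2 was at -2.84 ± 0.08, exon 2a over 2b of Tpm1 at -4.91 ± 0.25, and heavy over light caldesmon at -5.50 ± 0.22. Each ratio was further from 0 than its spread between libraries, although an SD from 2 libraries is itself imprecise.

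**Figure D4:**
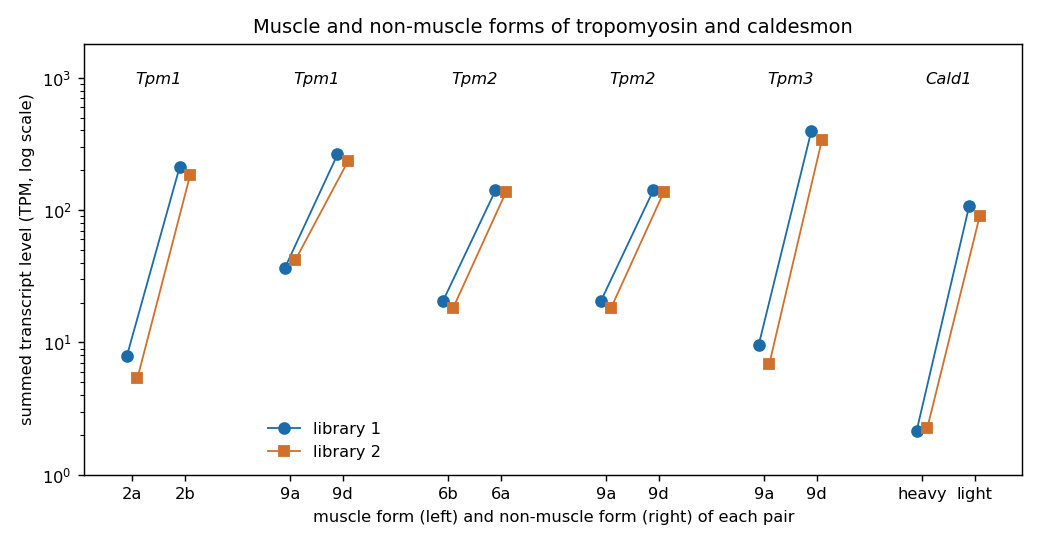
Summed transcript level in TPM on a log axis for the muscle form (left) and non-muscle form (right) of each pair, with a line for each library. In all 6 pairs and both libraries the muscle form lies lower, at 36.5 and 42.0 TPM for exon 9a against 263 and 235 TPM for exon 9d of Tpm1, and at 2.15 and 2.24 TPM for heavy against 108 and 90.8 TPM for light caldesmon.

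Summed over the genes, exon 9a was carried by 66.5 and 67.2 TPM, against 1365 and 1234 TPM for exon 9d. The share of 9a in the 2 was 4.65% and 5.16% (4.91 ± 0.365%). Tpm1 supplied the greater part of exon 9a in both libraries, and Tpm4, with Tpm3, the greater part of exon 9d. The long forms summed to 384 and 345 TPM, against 1085 and 977 TPM for the short forms, and took 26.1% of the total in each library. Tpm2, which has the long start alone in these tables, is counted with the long forms.

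The labelled tissue showed its markers. All 8 kidney genes checked were detected, among them Cited1 of nephron progenitors at 131 and 141 TPM, Wt1 at 129 and 81.5 TPM and the epithelial gene Epcam at 177 and 161 TPM, with the ureteric tip receptor gene Ret lowest at 11.1 and 5.07 TPM. The libraries held 29718428 and 29204212 expected counts, with 4.34% and 4.95% on spike-in sequences.

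Genes listed as muscle markers were detected beside the muscle forms, and how particular each is to muscle was not tested. Of 14 smooth muscle genes 11 were at 1 TPM or more in both libraries, against 33.1% of all genes, which were not restricted to protein-coding ones. The list summed to 474 and 366 TPM. Myl9, a regulatory myosin light chain, was highest at 196 and 163 TPM, followed by the smooth muscle actin Acta2 at 98.1 and 55.1 TPM and smoothelin (Smtn) at 55.9 and 38.1 TPM. Levels differed widely within the list. Des was at 32.2 and 37.8 TPM and Tagln at 22.0 and 19.0 TPM, but Myh11 was at 2.71 and 0.65 TPM. Cnn1 was at 2.60 and 1.78 TPM, and Lmod1, lowest by its mean, was at 0.44 and 0.21 TPM. In TPM, 13 of the 14 were higher in replicate 1, but with TMM scaling 9 of the 14 were. Exon 2a of Tpm1 was at 7.91 and 5.37 TPM, with bounds that overlapped between libraries, and heavy caldesmon was at 2.15 and 2.24 TPM. None of the 14 markers was at 0.

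Of 19 striated muscle genes 10 were detected, against 33.1% of all genes, which were not restricted to protein-coding ones. At 5 TPM or more in both libraries 4 remained, a level at which the share of all genes was not computed. The list summed to 59.9 and 64.0 TPM. The highest were the slow troponins Tnni1 at 14.3 and 14.9 TPM and Tnnt1 at 10.5 and 15.4 TPM, and cardiac actin Actc1 at 9.66 and 9.47 TPM. Embryonic myosin Myh3 was at 0.35 and 0.08 TPM, Ckm at 0.42 and 0.13 TPM, and Myh8 was lowest at 0.10 and 0.03 TPM; none of the 19 was at 0. Exon 9a was at 36.5 and 42.0 TPM in Tpm1, at 20.4 and 18.4 TPM in Tpm2 and at 9.57 and 6.85 TPM in Tpm3. In TPM the 3 genes thus did not move one way, and no direction between the libraries is drawn from exon 9a. The part of muscle cells in the muscle forms was not tested. In tissue RNA, fewer cells of a type and less RNA per cell cannot be told apart.

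Non-muscle contractile genes were far more abundant. Of 12 genes 11 were detected, with a median of the mean level of 153 TPM, against 11.0 TPM for the smooth muscle list and 1.62 TPM for the striated list. Actb was at 5677 and 5361 TPM, Actg1 at 2057 and 1733 TPM and the regulatory light chain Myl12a at 522 and 527 TPM. Myh14 was lowest at 1.30 and 0.91 TPM. The 4 tropomyosin genes summed to 1516 and 1361 TPM beside these actins.

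**Figure D5:**
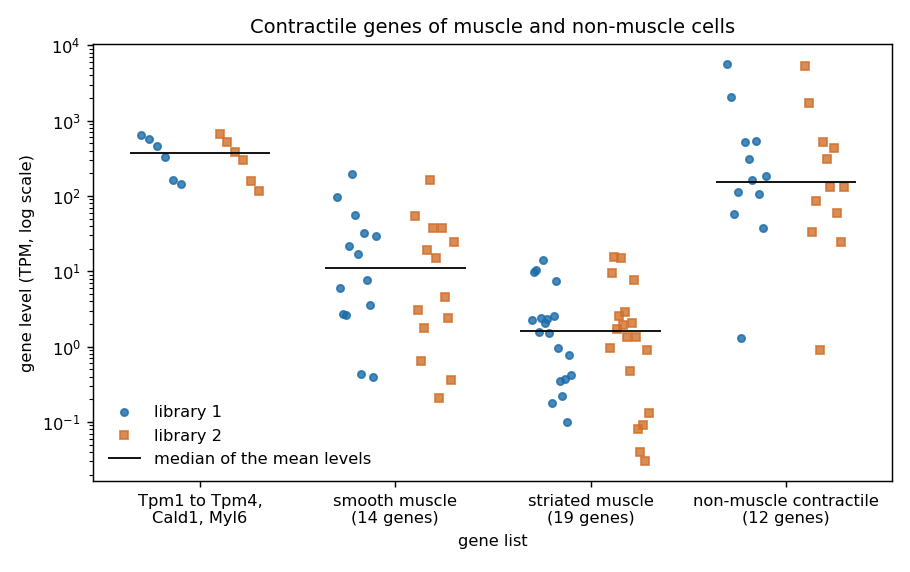
Level in TPM on a log axis of the 6 genes and of the genes of 3 lists, with points for libraries 1 and 2 and a line at the median of the mean levels. The median was 11.0 TPM for smooth muscle, 1.62 TPM for striated muscle and 153 TPM for non-muscle contractile genes, and all 6 genes lie above 115 TPM.

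Among the other myosin light chains, 6 of 11 genes were detected. Myl12a and Myl12b (307 and 310 TPM) were the highest of these, followed by Myl9. Myl6b, a relative of Myl6, was at 0.61 and 0.91 TPM, and Myl10 was lowest at 0 and 0.06 TPM.

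Tropomodulins cap the pointed end of filaments that tropomyosin coats, and leiomodins nucleate filaments in muscle. Of 7 such genes 4 were detected. Tmod3, the widely expressed tropomodulin, was at 86.4 and 49.1 TPM, Tmod2 at 17.3 and 12.8 TPM and Tmod1 at 4.03 and 3.86 TPM. Lmod2 was listed with 0 counts in each library, and such a count is compatible with up to 3. The leiomodins thus stayed below 1 TPM where the tropomodulins did not.

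Cofilins and other severing proteins compete with tropomyosin for filaments, and all 7 genes of this list were detected. Cfl1 was at 2020 and 1924 TPM, Dstn at 318 and 239 TPM and Wdr1 at 167 and 111 TPM. The lowest, the epithelial villin gene Vil1, was at 5.30 and 2.07 TPM. It was the 1 gene of all these lists past the 2-fold rule between libraries, against 4.06% of the 15702 genes tested. Myh11 and Fmnl1 were further apart on the log2(TPM + 1) scale, at 1.17 and 1.21 against 1.04 for Vil1. They did not reach the 5 TPM that the rule asks for. Formins, which in yeast and mammalian cells assemble filaments that take up particular tropomyosins, were lower, with 9 of 10 detected and a median over the list of 5.72 TPM. Fmnl3 was at 21.9 and 11.3 TPM, Fmnl2 at 13.7 and 18.4 TPM, Diaph3 at 10.8 and 7.70 TPM, and Fmnl1, the lowest by its mean though not in replicate 1, at 3.22 and 0.83 TPM.

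All 18 splicing factors with known roles on tropomyosin or muscle exons were detected, with a median of 34.8 TPM. Srsf1 was highest by its mean at 330 and 196 TPM, followed by Ptbp1, a repressor of muscle exons in non-muscle cells, at 262 and 208 TPM. Rbpms, known in rat cells as an activator of smooth muscle exons, was at 90.1 and 70.7 TPM. Rbm20, which acts on titin in heart and skeletal muscle, was lowest at 2.29 and 1.43 TPM.

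Factors of the SRF pathway act on many actin and contractile genes. They were listed together with Tead1, and all 5 genes of this list were detected. Tead1 was at 23.3 and 27.1 TPM, Mrtfb at 23.5 and 25.2 TPM and Mrtfa at 21.8 and 16.9 TPM. Srf, the DNA-binding partner of Mrtfa and Mrtfb, was at 5.20 and 6.08 TPM, and Myocd, the coactivator of smooth and heart muscle, was lowest at 3.57 and 2.41 TPM.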

How the data were processed

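Per the labels, total RNA above 200 nt was extracted with a mirVana kit, 10 ng entered each library, spike-ins were added, and a Smart-seq protocol is linked. The deposited tables are on mm10 with annotation M4, per the notes deposited with them, with aligner and quantifier not given in the sources used here. Expected counts, TPM and FPKM per gene and transcript were used as the authors deposited them. The deposited credibility bounds are a signal on the TPM scale, and the deposited isoform percent is a transcript's share of its gene.

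Gene IDs were matched to symbols after dropping versions (42462 of 43346). Of the 63 transcripts 62 matched GENCODE M21 on GRCm38 (the assembly of mm10) with equal length, and their exons decided the forms by exact splice boundaries. Exon sequences come from the same release. The genes and lists were chosen with earlier results of these data known. Named were the 6 genes, their transcripts at 1 TPM or more, and the 3 highest and the lowest gene of each list, with genes needed to place a form. Mkl1 and Mkl2 are given as Mrtfa and Mrtfb. No likeness between genes was sought, since 2 samples give no pattern. Genes apart between libraries differed by 1 or more in log2(TPM + 1), with 5 TPM or more in the higher library. P-values were not computed. Only the labels say that the samples are separate embryos, so the spread may be partly technical. Scaling alternatives took the expected counts as deposited, rounded to integers, through edgeR 4.0.16 and DESeq2 1.42.0 (R 4.3.3). Scripts in Python 3.11.15 (pandas 2.3.3, numpy 2.4.6, matplotlib 3.10.9) were tested on simulated data. The use of strand in counting is unstated, so reads of antisense genes may be included.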

Additional observations from a re-analysis of the deposited data

How the results depend on the processing

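For 56 alternatives the outcome was fixed by construction (leaving out a replicate for a level or share, which with 2 libraries moves a mean by less than its SD, shares from FPKM, and shares over transcripts of equal length), and they say nothing about stability. Of the other 108, 76 moved by less than the spread between libraries (counts by less than 1.5 times) and 32 moved by more. Some of the 76 could not move either, so their number is not a measure of stability. At the levels of the 6 genes, the pseudocounts and the filter could not change how many were apart between libraries. Keeping protein-coding transcripts alone left exon 6b of Tpm2 at 12.2%, because the transcripts dropped show no exon 6. The start of Cald1 turned: the distal start took 69.8% in TPM but 39.9% weighted by expected counts and 19.5% over complete coding transcripts. FPKM, another scale, gave lower levels for all 6 genes in the same order: Myl6 466, Tpm4 388, Tpm3 298, Tpm1 223, Tpm2 114 and Cald1 92.2. TPM rescaled over genes alone, without spike-ins and unnamed features, gave 722 for Myl6, 602 for Tpm4, 347 for Tpm1 and 177 for Tpm2, and the posterior mean gave 635 for Myl6. Weighting forms by expected counts, which favour long transcripts, gave 20.7% for exon 6b of Tpm2, 1.64% for exon 9a of Tpm3 and 3.60% for heavy caldesmon. Restricting to protein-coding transcripts, and to complete ones, gave 1.68% for exon 9a of Tpm3; complete transcripts gave 3.69% for heavy caldesmon. In each of these shares of muscle forms, the muscle form was below the non-muscle form. At 5 TPM in both libraries 7 smooth and 4 striated muscle genes were detected, with no share of all genes computed at that level.

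Leaving out a replicate leaves the other library's value: levels of 296 to 332 TPM for Tpm1, 156 to 165 for Tpm2, 385 to 455 for Tpm3, 524 to 565 for Tpm4, 116 to 145 for Cald1 and 649 to 656 for Myl6. The count of the 6 genes apart between libraries was 0 under every pseudocount, filter, fold and scaling tried. Of all genes tested, 251 of 15702 were apart with a pseudocount of 5, 3114 of 15702 at 1.5-fold and 253 of 15384 with TMM scaling. With so small a part of all genes apart in most settings, 0 of 6 says little about these genes. No paired analysis was possible because there is 1 group. Forms that share most exons are the least certain: Tpm1-215 was listed at 0 with an upper bound of 3.56 TPM in replicate 1, and Tpm2-206 at 2.52 TPM with a lower bound of 0.138. An SD from 2 libraries is imprecise.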
